A study of Mus musculus with 4 samples.

Results

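The hormone genes described here are Pth1r, Pthlh, Vdr, Cyp24a1, Ghr, Esr1 and Nr3c1, which cover the receptors for parathyroid hormone, vitamin D, growth hormone, oestrogen and glucocorticoid, 1 ligand and 1 vitamin D degrading enzyme. Every probe that the array files name for 1 of these 7 genes was taken, which gave 12 of 55681 probes, and 11 of the 12 (6 of the 7 genes) passed the filter on dim probes. Odontoblasts, which deposit dentin, were compared with osteoblasts, which deposit bone, on 4 expression arrays with 2 colours. Both RNAs came from 2-week-old mice whose EGFP transgene was driven by 2.3 kb of a type I collagen promoter, with the strain given as C57BL/6 for the odontoblast channel. Dental pulp and calvarial bone (the skull vault) of matched donors were digested with enzymes, and cells were sorted for green fluorescence. The promoter is active in both cell types, so the sort selects cells by collagen promoter activity and not by cell type. Each array held the RNA labelled primary odontoblast in Cy5 and the RNA labelled calvarial osteoblast in Cy3, and no array had the dyes exchanged, so dye and cell type cannot be told apart. The labels do not give the number of animals behind an array, and the p-values below therefore reflect spread among 4 arrays, part of which may be technical, and the number of arrays limits the precision.

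Parathyroid hormone (PTH) and its local relative PTHrP, the product of Pthlh, act on the same receptor, Pth1r, which raises cyclic AMP in osteoblasts. Vitamin D acts through Vdr, a nuclear receptor that pairs with a retinoid X receptor and strongly induces Cyp24a1, the enzyme that breaks vitamin D down. Esr1 and Nr3c1 are steroid-binding nuclear receptors, and Ghr signals at the cell surface through the kinase Jak2. In teeth, PTHrP is known for its part in tooth eruption, where it signals from the enamel organ epithelium to the dental follicle.

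All ratios are log2 of Cy5 over Cy3 after normalisation, so that positive values stand for the channel labelled odontoblast. Between 67.8% and 85.2% of probes per array and channel lay well above background. Marker genes ran against the labels. Dspp, the main dentin phosphoprotein gene, had a mean ratio of -1.95 (adjusted p = 0.0602, limma), and Nes, which encodes nestin of odontoblasts, had -2.0 (adjusted p = 0.0690). Ifitm5, a gene of mineralising osteoblasts, had 5.05 (adjusted p = 0.0167), and the type I collagen genes Col1a1 (1.80, adjusted p = 0.0521) and Col1a2 (2.79, adjusted p = 0.0230) also lay toward Cy5. Channels are therefore named by dye and label, and every direction below would be exchanged if the labels were. All 10 osteoblast markers had a positive mean ratio (median 2.23). Of these, Sp7 (0.02) and Alpl (0.05) lay near 0, and 3 had an adjusted p under 0.05 (limma). Of 9 odontoblast markers, 6 had a negative mean ratio (median -1.71). The 2 with an adjusted p under 0.05 were Wnt10a (-5.91, adjusted p = 0.00578) and Bmp7 (-4.57, adjusted p = 0.00544). At an adjusted p under 0.05 (limma), 422 of 19864 genes were called, or 2.12%, with 251 (1.26%) higher in Cy5 and 171 (0.861%) higher in Cy3. With median centring in place of loess the split was 1178 and 243, and the median gene lay at 0.20 in place of 0.01.

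The Pth1r probe and the Esr1 probe nearest the transcript's start are printed, because the Pth1r ratio was the largest here and because the Esr1 probes gave unlike ratios. Each is the 60-base probe from the array files, printed 5′ to 3′ in the sense of the transcript, with no part marked, and each had 1 reading frame without a stop codon. Neither was placed against an annotation here. The Pth1r probe (A_51_P327874) lies at chr9:110624846-110624905 and the Esr1 probe (A_55_P2030883) at chr10:5489352-5489411, both on mm9.
Pth1r: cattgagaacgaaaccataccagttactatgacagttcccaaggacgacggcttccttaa
Esr1: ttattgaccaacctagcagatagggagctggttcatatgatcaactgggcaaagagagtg

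Pth1r and Vdr were also the 2 genes of the set that passed the test, in the same direction, so the 250 bases before a transcription start are printed for each. RefSeq promoter entries (build GRCm38.p6) matched 5 of the 7 genes with 9 windows, all but Cyp24a1 and Nr3c1. Motifs were searched on both strands of the whole windows, from 250 bases before to 50 bases after a start. They were the GC box GGGCGG, the RUNX core TGTGGT, the nuclear receptor core AGGTCA and the cyclic AMP response core TGACGT. Capitals below mark GC boxes on either strand. The Pth1r window, chr9:110742611-110742860 on the minus strand, is the most downstream of 3 and holds 4 of them, and the other Pth1r windows hold 1 and 0. The Vdr window, chr15:97908297-97908546 on the minus strand, holds 3. A GC box stands in 32.7% of all 32851 windows. The other 3 motifs stand in 14.0%, 14.0% and 6.47% of windows and were not found in these letters in any of the 9 windows. A match is a run of letters and not a measured binding site.
Pth1r start, 250 bases before it: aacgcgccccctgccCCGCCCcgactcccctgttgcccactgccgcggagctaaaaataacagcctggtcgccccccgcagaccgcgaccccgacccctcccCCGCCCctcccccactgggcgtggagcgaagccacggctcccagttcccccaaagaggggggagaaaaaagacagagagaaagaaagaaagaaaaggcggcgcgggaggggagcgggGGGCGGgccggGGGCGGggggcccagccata
Vdr start, 250 bases before it: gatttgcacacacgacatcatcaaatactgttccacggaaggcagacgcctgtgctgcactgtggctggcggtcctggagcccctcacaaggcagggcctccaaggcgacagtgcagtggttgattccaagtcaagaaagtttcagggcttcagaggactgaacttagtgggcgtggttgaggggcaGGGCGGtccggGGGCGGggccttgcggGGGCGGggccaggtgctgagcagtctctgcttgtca

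Pth1r, the receptor shared by PTH and PTHrP, had more signal in Cy5 on every array. Its normalised level (loess, then equal average intensity between arrays) was 58900, 26200, 33900 and 37900 in Cy5 on arrays 1 to 4, against 762, 1750, 1370 and 2120 in Cy3. The lowest Cy5 level lay far above the highest Cy3 level, so the channels did not overlap. Non-overlapping levels were seen for 14.4% of all genes and 13.2% of all probes. Log2 ratios were 6.27, 3.91, 4.63 and 4.16, with array 1 the highest. The mean was 4.74 ± 0.42 (SE, n = 4), or 26.8-fold, with an adjusted p of 0.0167 (limma, Benjamini-Hochberg over all 37356 features), and 12 of 19864 genes had a larger ratio. The call rested on all 4 arrays. Without any 1 of them the ratio stayed between 4.23 and 5.02, but the adjusted p rose to 0.0511 without array 1, 0.0687 without array 2, 0.0541 without array 3 and 0.0854 without array 4. Calls were lost over the whole series too: 422 called genes became 0, 0, 182 and 31 in the same order.

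Vdr, the vitamin D receptor, was likewise higher in Cy5. Levels were 4200, 6870, 7300 and 3560 in Cy5 and 290, 501, 1090 and 615 in Cy3 (probe at chr15:97685136-97685195, mm9). The channels did not overlap, and the Cy3 level of array 3 was the highest of the 4. Log2 ratios of 3.86, 3.78, 2.74 and 2.53 gave a mean of 3.23 ± 0.30 (SE, n = 4), or 9.36-fold, with an adjusted p of 0.0182 (limma). Leaving out array 3 kept the call (adjusted p = 0.0464). Leaving out array 1, 2 or 4 ended it, at adjusted p-values of 0.0846, 0.0839 and 0.0751, with 0, 0 and 31 of all genes called. Thus 2 of the 7 genes were called, against 2.12% of all genes (2 of the 12 probes, against 1.62% of all probes), and as these genes were chosen with earlier results known, that share is a description only. In a bulk RNA sample, a higher share of cells of 1 type and more RNA per cell cannot be told apart.

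**Figure D1:**
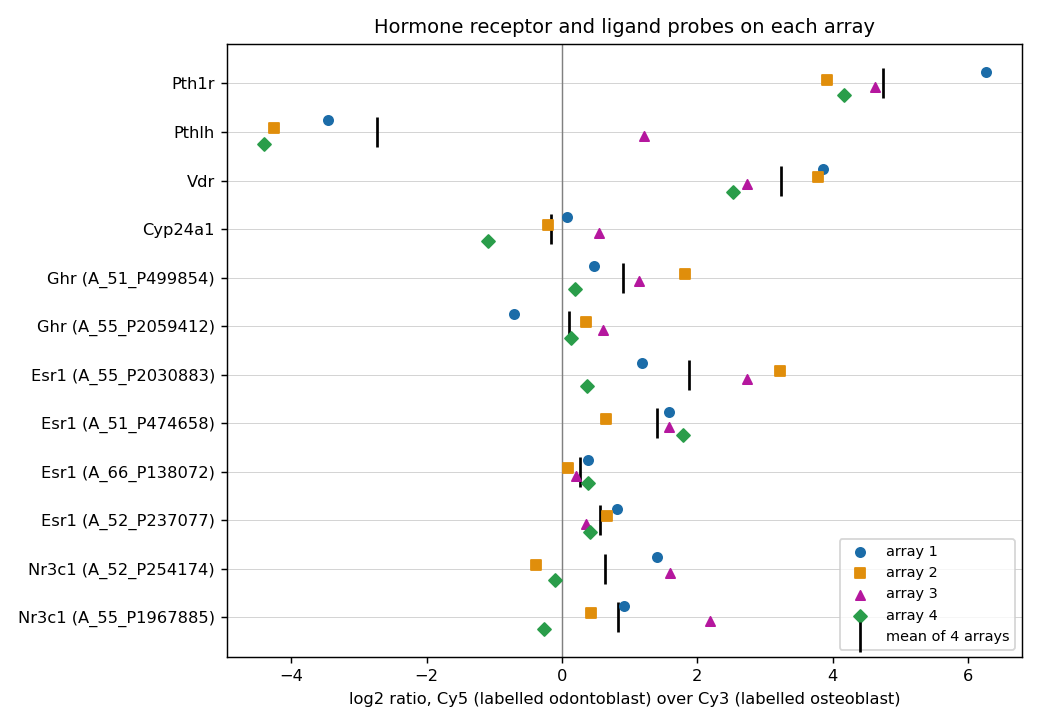
Log2 ratio of Cy5 over Cy3 for each of the 12 probes (rows) on arrays 1 to 4 (coloured marks), with the mean as a black bar. Pth1r and Vdr lie at 2.53 or higher on every array, Pthlh lies at -3.46 or lower on 3 arrays and at 1.21 on array 3, and the probes of Esr1 differ among themselves.

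Cyp24a1, the vitamin D degrading enzyme whose gene Vdr induces, was not well above background in either channel, apart from the Cy3 spot of array 4. Its spot signal in Cy5 was 73.0, 72.8, 89.5 and 64.4, beside local backgrounds of 62, 67, 63 and 59.5. In Cy3 the spot signal was 32.3, 41.8, 28.6 and 85.8, beside backgrounds of 17, 16, 18 and 16. Only the Cy3 spot of array 4 was well above background, so the probe (chr2:170308865-170308924, mm9) did not pass the filter and no fold is given. Its ratios of 0.07, -0.20, 0.54 and -1.09 have no settled sign. Without the filter the mean was -0.17 (adjusted p = 0.801, limma). The higher Vdr level in Cy5 was therefore not accompanied by a Cyp24a1 signal in that channel that these arrays could measure.

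No other measured gene of vitamin D handling was called. Of 19 genes for vitamin D metabolism, transport and receptor partners, 17 were measured, and the median ratio was -0.02 against 0.01 over all genes. Rxra, the retinoid X receptor that pairs with Vdr, had 0.71 ± 0.55 (SE, adjusted p = 0.528), of which array 3 alone gave 2.79. The second Rxra probe had 0.19. Cyp27b1, which makes active vitamin D, had -0.73 (adjusted p = 0.205) and was well above background on 3 arrays in Cy3 and 2 in Cy5. The brightest members, the coactivator subunit Med1 (-0.13, adjusted p = 0.692) and the disulfide isomerase Pdia3 (0.90, adjusted p = 0.214), were not called. The 4 probes of Med1 ranged from -0.61 to -0.13. Among 20 genes listed here as vitamin D targets, 17 were measured, and 8 of them had an unadjusted p under 0.05 (limma; 21.2% of all genes did). Of these, Calb2 and Pthlh had negative mean ratios and the others had positive ones, the side of Vdr. The 1 called gene (2.12% of all genes were called) was Calb2, which encodes the calcium-binding protein calretinin. It was 8.05-fold higher in Cy3 (-3.01 ± 0.23, adjusted p = 0.0118), opposite to Vdr. The bright targets Fgf23, a phosphate-regulating hormone (0.20, adjusted p = 0.586), and Bglap, osteocalcin (1.34 ± 0.75, adjusted p = 0.392), were not called, and Bglap shares its signal with near-identical copies. Second probes of Fgf23 and Bglap had 0.71 and 2.06. Spp1, osteopontin, and Tnfsf11, the osteoclast-inducing ligand RANKL, both named after their values were seen, had 3.06 ± 0.65 (SE, adjusted p = 0.105) and 2.75 ± 0.67 (SE, adjusted p = 0.131), positive on all 4 arrays. Tnfsf11 was well above background on 0 arrays in Cy3 and on 4 in Cy5. Enpp3, another of the 8, was so on 0 arrays in Cy3 and 3 in Cy5. Both passed the filter through Cy5 alone, so their ratios rest on a Cy3 signal not well above background. The list's median was 0.20, and 0.62 with median centring, where the median of all genes was 0.20.

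Pthlh, the gene of PTHrP, ran opposite to its receptor on 3 arrays. Its level was 1630, 3330 and 4870 in Cy3 on arrays 1, 2 and 4, against 147, 174 and 229 in Cy5. On array 3 the order was turned, with 228 in Cy3 and 527 in Cy5. Log2 ratios were -3.46, -4.26, 1.21 and -4.41, so the channels overlapped. The mean of -2.73 ± 1.0 (SE, n = 4) did not pass the test (adjusted p = 0.236, limma; probe at chr6:147200926-147200985, mm9). Without array 3 the mean was -4.05 and passed (adjusted p = 0.0321).

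Dental epithelium markers, enamel-forming cell genes that the sort was not aimed at, are given beside Pthlh because they lay toward the same channel. Of 10 markers 8 were measured, 1 had a positive mean ratio, and Ambn and Odam were called, both higher in Cy3 (0.861% of all genes were). Their median ratio on arrays 1 to 4 was -1.95, -1.47, -0.34 and -1.34, with array 3 nearest to 0. The called markers did not follow that median: Ambn was most negative on array 3 (-4.16, against -2.58, -2.89 and -2.56), and Odam was at -5.02 there, inside its range of -5.59 to -4.24. Among the uncalled markers, Enam and Perp were positive on array 3 alone, as Pthlh was. Enam had -3, -2.1, 0.14 and -1.33, and Perp had -2.5, -1.54, 0.4 and -2.97. No other measured marker was positive on array 3 alone. The 8 markers' summed level in Cy3 was 8660 on array 3, inside the range of 6380 to 12300 over the arrays. In Cy5 the sum ranged from 2040 to 2580. Odontoblast markers lay toward Cy3 too (median -1.71), and of these Wnt10a and Bmp7 were called. The odontoblast medians on arrays 1 to 4 were -2.15, -1.05, -1.06 and -1.73. Array 3 also had the highest median of 13 macrophage and leukocyte markers (3.0, against 0.67 to 1.08 on the other arrays) and the lowest of 12 fibroblast and periosteum markers (0.21, against 1.81 to 2.99). The part of these markers in the Pthlh ratio was not tested.

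**Figure D2:**
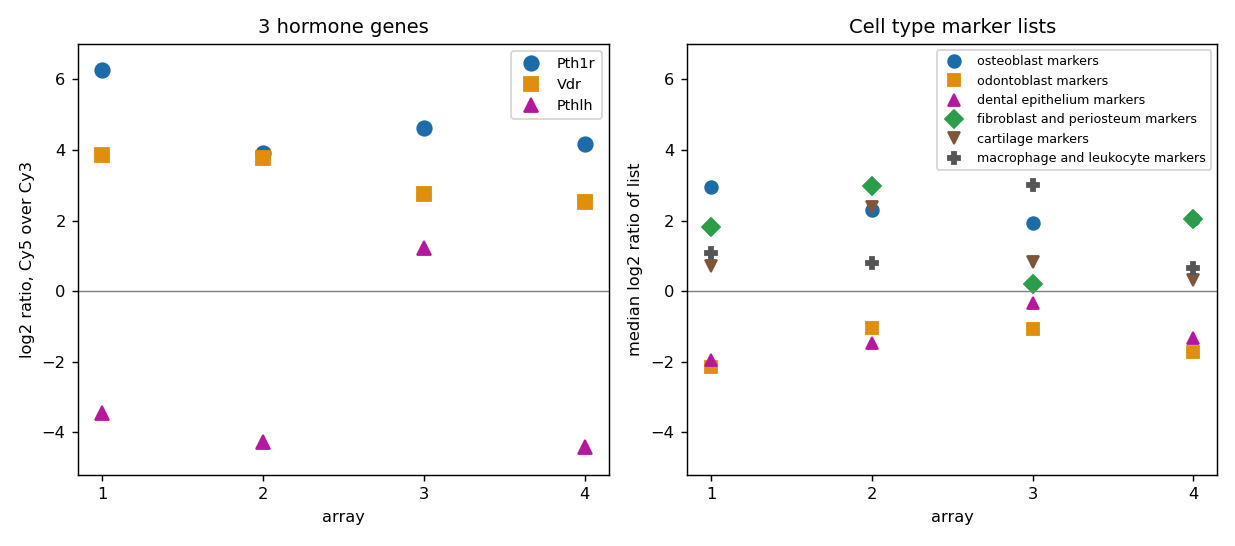
Left, log2 ratio of Pth1r, Vdr and Pthlh on each array; right, median log2 ratio of 6 cell type marker lists on each array. Pthlh is at 1.21 on array 3 and at -3.46 or lower on the others, and on array 3 the leukocyte markers are at their highest and the fibroblast markers at their lowest.

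The other genes listed with the PTH ligands and receptors, which include calcitonin-family receptor genes and Ramp genes, were dim or not called. Of 10 genes 6 were measured and Pth1r was the only call, with a list median of -0.06. Pth, the gene of the circulating hormone, and Pth2r were not well above background on any array in either channel, and the calcitonin receptor gene Calcr reached it on 1 array in Cy5. Ramp1, which encodes a protein that modifies calcitonin-family receptors, had 2.02 ± 0.50 (SE), positive on all 4 arrays (adjusted p = 0.136), and its 3 probes ranged from 0.49 to 2.02. Ramp3 had -0.16 (adjusted p = 0.732).

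Genes that carry the Pth1r signal had a median near that of all genes. Of 29 genes for receptor coupling and cyclic AMP signalling, all 29 were measured and 0 were called by limma (2.12% of all genes were), with a median of 0.06. Gnas, the stimulatory G protein subunit that couples to Pth1r, had 0.34 ± 0.18 (SE, adjusted p = 0.354), and the protein kinase A subunit gene Prkaca had -0.16 (adjusted p = 0.702). The 4 probes of Gnas, a gene with several transcripts, ranged from -0.30 to 1.25. Of 19 genes that PTH is known to induce in osteoblasts, 18 were measured and 0 were called, with a median of 0.24. That median was 0.62 without array 1, 0.08 without array 2, -0.07 without array 3 and 0.58 without array 4, so its sign rested on array 3. At an unadjusted p under 0.05, 6 of the 29 signalling genes and 1 of the 18 induced genes would count, against 4213 of all 19864 genes (21.2%).

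Esr1, oestrogen receptor alpha, was positive on all 4 arrays by each of its 4 probes, and no probe passed the test. The probe printed above had levels of 327, 932, 901 and 226 in Cy5 and 145, 100, 136 and 175 in Cy3. Its channels did not overlap, arrays 2 and 3 stood apart from arrays 1 and 4, and the Cy3 spots of arrays 2 and 3 were not well above background. Log2 ratios were 1.18, 3.22, 2.73 and 0.37, with a mean of 1.87 ± 0.52 (SE, n = 4, adjusted p = 0.16, limma). The size depended on the processing: it was 3.42 with the scanner software's processed signals and with the deposited value table (adjusted p = 0.2 in both), and 1.03 with the mean of all Esr1 probes (adjusted p = 0.0635).

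The 3 further Esr1 probes gave smaller means. A probe nearer the transcript end (A_51_P474658, chr10:5345046-5345105, mm9) was well above background in Cy3 on 2 arrays and had ratios of 1.58, 0.65, 1.58 and 1.79, which order the arrays differently. Its mean of 1.40 ± 0.25 (SE) had an adjusted p of 0.0714 over all 44239 probes, and with median centring it was called (1.5, adjusted p = 0.0356). The last probe of the transcript (A_52_P237077, chr10:5343056-5343115) was printed 10 times on each array. Its mean ratios were 0.81, 0.67, 0.36 and 0.41, and its SD over the spots of an array was 0.11 to 0.18, which measures printing and scanning error alone. Between arrays the SD of this probe was 0.21, against 1.33 for the printed probe. These SDs are not like for like: the first is of means over 9 or 10 spots at Cy5 levels of 88 to 132, and the second is of single spots. None of the 4 arrays had A_52_P237077 well above background in Cy3, so it gives a bound only, at least 1.1-fold. A probe to a separate cDNA clone (A_66_P138072, chr10:5379218-5379277) was equally dim in Cy3, with a mean of 0.27 and a bound of 1.15-fold under the main processing. With median centring its log2 ratio was 0.06, which is less than that bound. With processed signals these 3 probes moved to 2.96, 1.91 and 1.40, in the order given, and none was called. Bounds set the Cy5 mean against the lowest Cy3 signal that counts as well above background, or the probe's own where higher. They hold for the main processing only, and neither of the probes given a bound was well above background in Cy5 on array 3.

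The list of sex steroid genes, which includes Esr1, gave no call. Of 27 receptors, enzymes and targets, 24 were measured and 0 were called by limma (10 at an unadjusted p under 0.05, against 21.2% of all genes), with a median of 0.04. Esr2, oestrogen receptor beta, had -0.18 (adjusted p = 0.619), and the corepressor gene Nrip1 had -0.72 (adjusted p = 0.154, negative on all 4 arrays).

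**Figure D3:**
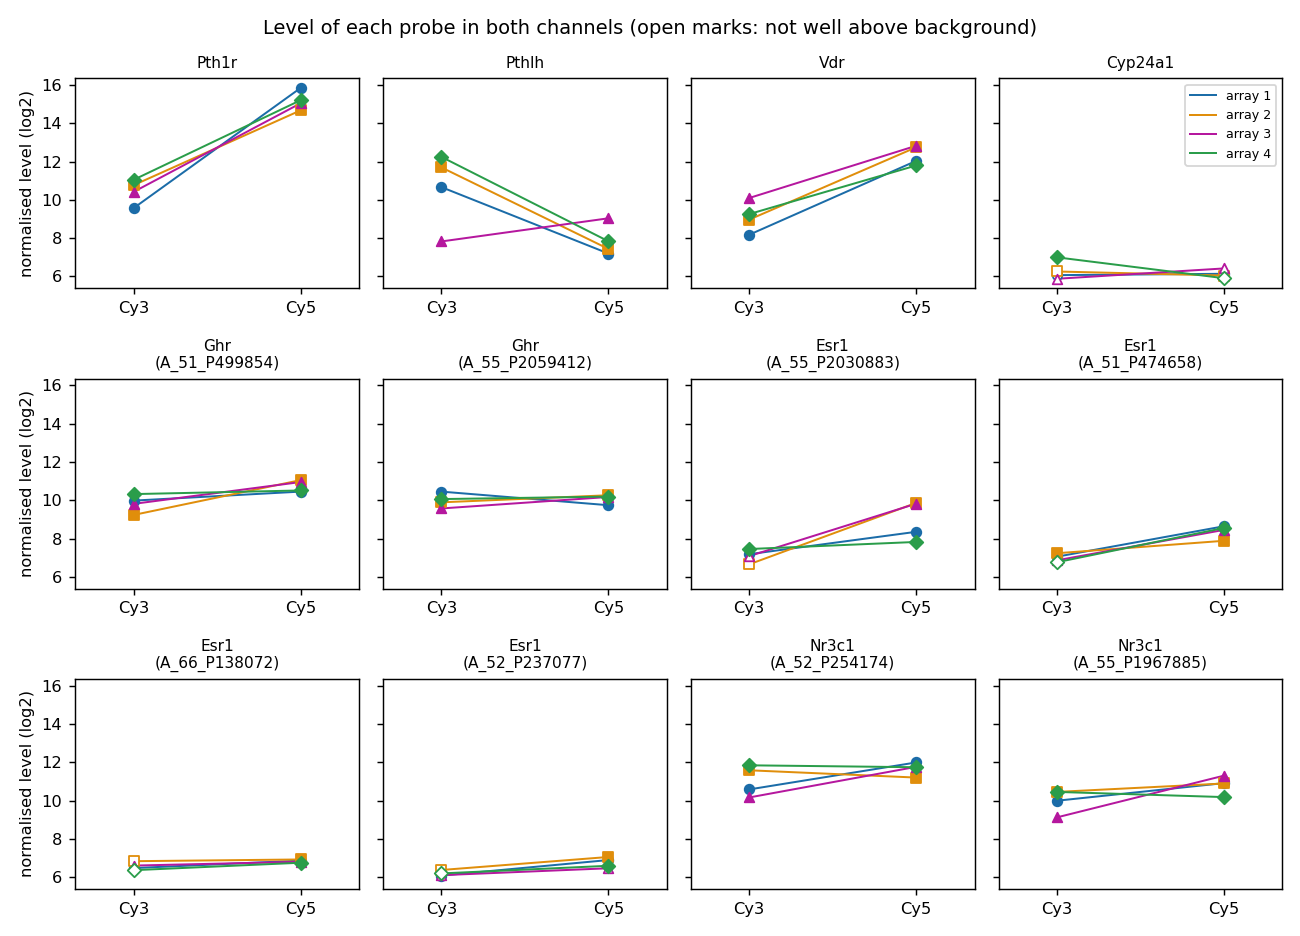
Normalised log2 level in Cy3 and Cy5 of each probe, 1 line per array, to be read within a panel because probes bind with different strength. Open marks were not well above background, and they fill the Cyp24a1 panel apart from the Cy3 mark of array 4.

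Ghr, the growth hormone receptor, was measured by probes to 2 transcript variants. The gene is known to give a long mRNA for the membrane receptor and a shorter one for a soluble binding protein. The probe that the files assign to variant 1 (A_51_P499854, chr15:3268107-3268166, mm9) had levels of 1400, 2120, 1980 and 1460 in Cy5 and 1010, 602, 899 and 1280 in Cy3. Its channels did not overlap, and its ratios of 0.47, 1.81, 1.14 and 0.19 gave a mean of 0.90 ± 0.31 (SE, n = 4, adjusted p = 0.217, limma). The probe assigned to variant 2 (A_55_P2059412, chr15:3277543-3277602) had ratios of -0.71, 0.36, 0.60 and 0.13 and a mean of 0.10 ± 0.27 (SE, adjusted p = 0.873), with overlapping channels.

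The variant 1 ratio exceeded the variant 2 ratio on all 4 arrays, by 1.19, 1.45, 0.54 and 0.06, or 0.81 ± 0.63 on average (SD, n = 4). An exact two-sided permutation test that exchanged the sign within arrays gave p = 0.125 (adjusted p = 0.250 over 2 probe pairs), and 0.125 is the smallest p that 4 arrays allow. This comparison, and that of the 2 Nr3c1 probes below, were chosen after the values were seen.

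Growth hormone signalling held 1 called gene (2.12% of all genes were called). All 22 genes were measured, with a median of 0.09. Socs2, a feedback inhibitor of this receptor, was 6.70-fold higher in Cy5 (2.74 ± 0.38 SE, adjusted p = 0.0430), positive on all arrays, and its 4 probes ranged from 1.28 to 2.74. Jak2, the kinase bound to Ghr, had -0.16 (adjusted p = 0.723), the prolactin receptor gene Prlr had 0.40 (adjusted p = 0.520), and Stat3 had 0.95 (adjusted p = 0.261). Igf1, the main effector of growth hormone, had -0.37 (adjusted p = 0.405), with 5 probes from -1.12 to 0.37.

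Nr3c1, the glucocorticoid receptor, did not pass the test with either of its probes. The probe that represents it (A_52_P254174, chr18:39574183-39574242, mm9) had levels of 4080, 2350, 3470 and 3420 in Cy5 and 1530, 3050, 1140 and 3670 in Cy3. Levels in Cy5 lay close together, while those in Cy3 were low on arrays 1 and 3 and high on arrays 2 and 4. Ratios were therefore 1.41, -0.38, 1.60 and -0.10, and the mean of 0.63 ± 0.41 (SE, n = 4) had an adjusted p of 0.448 (limma). The second probe (A_55_P1967885, chr18:39571641-39571700) had ratios of 0.92, 0.43, 2.18 and -0.27, with a mean of 0.82 (adjusted p = 0.353). The first minus the second probe was -0.18 on average, with a sign that differed between arrays (exact permutation test, two-sided, p = 0.625, n = 4).

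Partners and enzymes of glucocorticoid action were not called, 0 of 13 measured, with a median of 0.08. At an unadjusted p under 0.05 (limma) 2 of them would count, against 21.2% of all genes. The mineralocorticoid receptor gene Nr3c2 had 0.58 (adjusted p = 0.479). Hsd11b1, which regenerates active glucocorticoid, had 0.25 with values between 0.20 and 0.32 on the arrays (adjusted p = 0.438). The cochaperone genes Ptges3 (-0.31, adjusted p = 0.389) and Stip1 (-0.87, adjusted p = 0.158) were negative on all 4 arrays by their representing probes. The 4 probes of Ptges3 ranged from -0.39 to 0.21. Of 20 glucocorticoid target genes 19 were measured, with a median of -0.07, and 1 was called (2.12% of all genes were). Sgk1, a kinase gene that steroid hormones induce, was 5.37-fold higher in Cy3 (-2.42 ± 0.32 SE, adjusted p = 0.0383). The bright targets Anxa1 (-0.94, adjusted p = 0.245) and the metallothionein gene Mt2 (0.73, adjusted p = 0.646) were not called.

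Further nuclear receptors held calls on both sides. Of 27 genes 24 were measured, with a median of 0.00. Nr2f1, an orphan receptor also called COUP-TFI, was higher in Cy5 (4.47 ± 0.29 SE, adjusted p = 0.00779), but its Cy3 spot cleared background on 1 of 4 arrays and its second probe had 1.83. Rarb, retinoic acid receptor beta, was 7.80-fold higher in Cy3 (-2.96 ± 0.24 SE, adjusted p = 0.0141), and its 3 probes ranged from -2.96 to -0.30. Ppard (-1.34, adjusted p = 0.181) and Nr4a2 (1.20, adjusted p = 0.307) were bright and not called. Over all 10 lists and apart from the 7 genes, 171 genes were measured, of which 2 (1.17%) were higher in Cy5 and 3 (1.75%) in Cy3, against 1.26% and 0.861% of all genes. Some lists share genes. The 5 calls fell to 0 without array 1, 0 without array 2, 3 without array 3 and 1 without array 4. Over all genes, 422 calls fell to 0, 0, 182 and 31 in the same order.

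**Figure D4:**
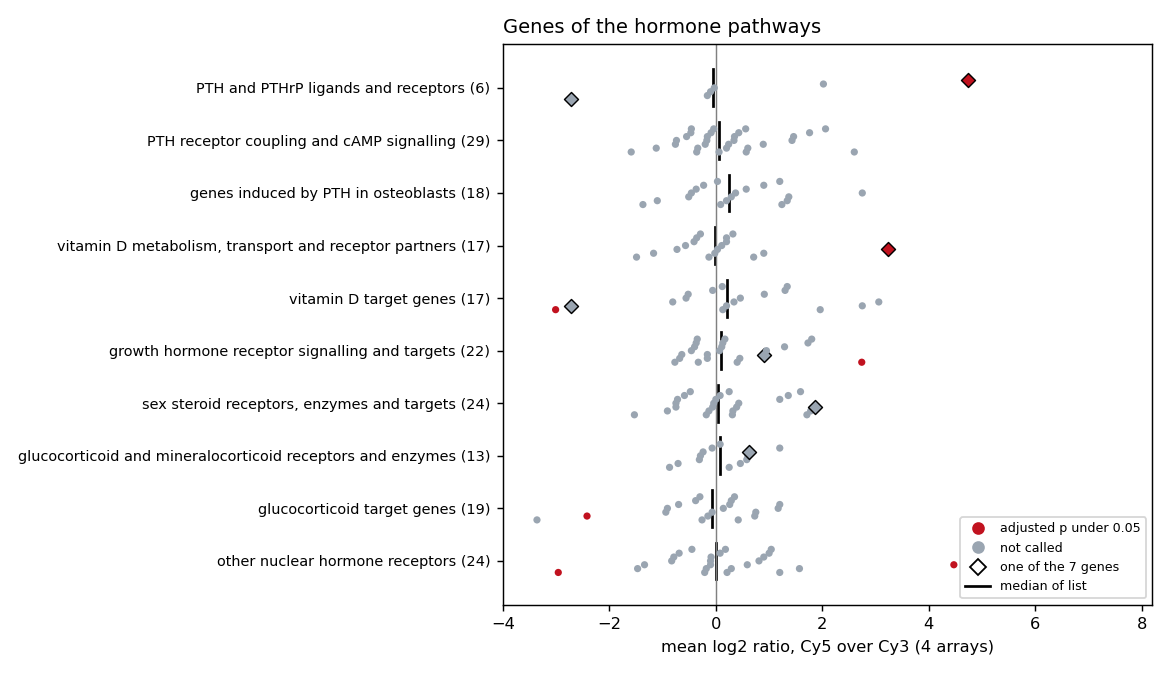
Mean log2 ratio of each measured gene in 10 hormone pathway lists (rows, number measured in brackets), with called genes in red, the 7 genes as diamonds and each list's median as a black line. In the setting plotted the medians lie between -0.07 and 0.24 (with median centring they lie between 0.00 and 0.62), and Pth1r, Vdr, Socs2 and Nr2f1 are the called genes on the Cy5 side.

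By mean ratio the order was Pth1r (4.74), Vdr (3.23), Esr1 (1.87), Ghr (0.90), Nr3c1 (0.63) and Pthlh (-2.73). With processed signals and with the deposited value table Esr1 (3.42) lay above Vdr (3.41), and the Esr1 value rests on a Cy3 channel that was well above background on 2 of 4 arrays. Ghr and Nr3c1 changed places with the mean of probes and without array 2. Taken array by array, Pth1r exceeded Vdr, Vdr exceeded Esr1, Esr1 exceeded Ghr and Nr3c1 exceeded Pthlh on all 4 arrays, by 1.52, 1.4, 0.97 and 3.37 on average, though Vdr and Esr1 differed by 0.01 on array 3. Each of these had p = 0.125 by an exact two-sided permutation test of signs (n = 4), the smallest that 4 arrays allow, and an adjusted p of 0.156 over 5 pairs. Ghr exceeded Nr3c1 on 2 of 4 arrays, by 0.27 ± 1.38 on average (SD, exact p = 0.875). These comparisons were added after the values were seen. Pth1r, Vdr, Esr1 and Ghr, 4 of the 6 genes that passed the filter, had 1 sign on all arrays, against 31.4% of all genes.

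Genes with the most similar ratios on arrays 1 to 4 were found by the root mean square difference of the 4 log2 ratios, over 19860 genes. Nearest to Pth1r were Tmie (0.54), a hair cell membrane protein gene, Rapgef4 (0.68), which encodes a guanine nucleotide exchange factor, and the transcription factor gene Ebf1 (0.71). Their mean ratios were 4.23, 4.22 and 4.63. Nearest to Vdr were Sorcs2 (0.27), Rtl3 (0.31) and Trabd2b (0.44), with mean ratios of 3.20, 3.12 and 3.52. Tmie and Rtl3 were well above background in Cy3 on 2 arrays only.

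Markers of some other cell types lay toward Cy5 with Pth1r and Vdr. The 13 macrophage and leukocyte markers had a median of 1.76, above those of cartilage (1.5) and fibroblast (1.42) markers, with Lyz2 (4.42, adjusted p = 0.0277) and Laptm5 (2.93, adjusted p = 0.0186) called. Their summed level was 115000 to 213000 in Cy5 and 80200 to 111000 in Cy3, and 9 of 13 were positive. Of 12 cartilage markers, 11 had a positive mean ratio and 3 were called in Cy5 (1.26% of all genes were). Cartilage markers had a summed level of 49800 to 227000 in Cy5 and 5730 to 9850 in Cy3. Of 12 fibroblast and periosteum markers, 9 were positive and 4 called, with sums of 186000 to 277000 in Cy5 and 66000 to 228000 in Cy3. Osteoblast markers summed to 496000 to 699000 in Cy5 and 114000 to 187000 in Cy3, and every cartilage, fibroblast and osteoblast marker was well above background on at least 1 array in each channel. Medians were 0.38 for osteocyte, 0.21 for osteoclast, 0.13 for endothelial and 0.04 for pericyte markers, and -0.06 for nerve, -0.13 for erythroid and -1.26 for dental epithelium markers. The part of these cells in the Pth1r and Vdr ratios was not tested.

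**Figure D5:**
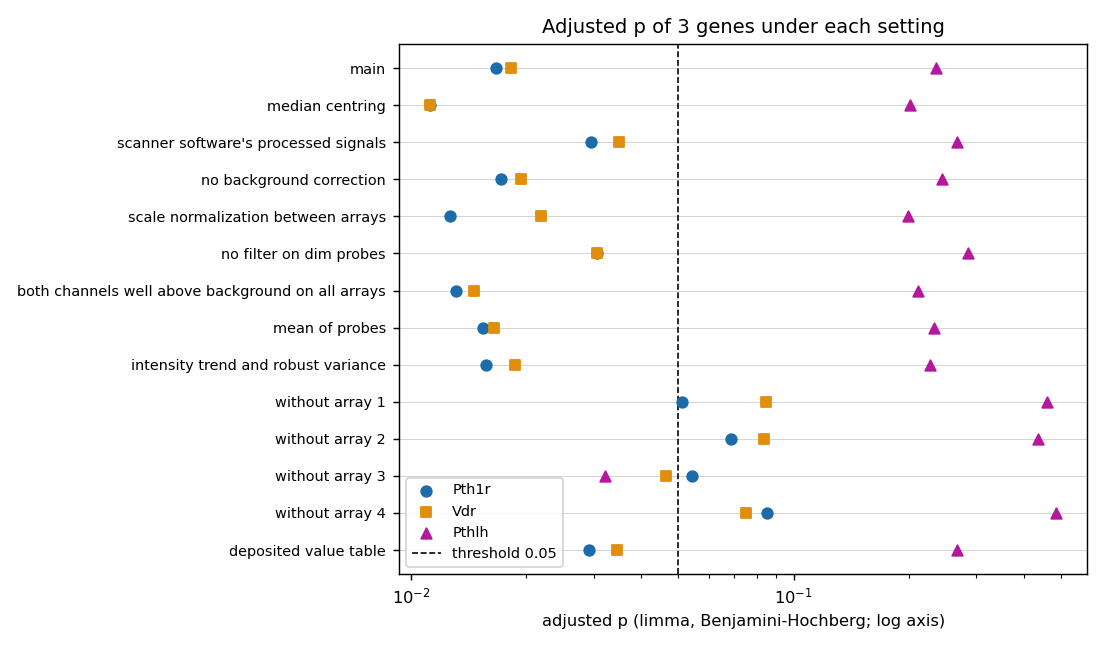
Adjusted p of Pth1r, Vdr and Pthlh under each processing setting (rows; log axis), with the threshold of 0.05 dashed. Pth1r and Vdr lie left of it in every setting that keeps all 4 arrays, and Pthlh lies left of it only without array 3.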

How the data were processed

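Per the file headers, the deposited scanner files were written by Agilent Feature Extraction 10.7.3.1 and give mean spot and median local background intensity per channel, processed intensity and a log10 ratio of Cy5 over Cy3 for 62976 spots per array. The deposited value table holds log10 ratios, which equal the scanner's to within 0.0001 for 99.3% to 99.4% of probes, so its scale and direction are known, and its column medians are 0. All 4 arrays are on 1 slide.

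Intensities were background corrected (normexp, offset 50), normalised by loess within arrays and by average intensity between arrays, and tested in limma 3.58.1 (R 4.3.3) as the mean log2 ratio against 0. The 3671 control spots had weight 0 in loess, 949 outlier spots were missing, and no spot was saturated (0). Probes well above background in 1 channel on at least 3 of 4 arrays were kept (44239 of 55681), and the brightest probe represented a gene. Adjusted p-values are Benjamini-Hochberg over 37356 features, of which 19864 carry a gene symbol, or over all kept probes where a single probe is named. Of the probes, 27235 were named through accessions, 3581 by a current symbol and 2381 by an older name, and 22484 had no symbol in the reference table (GRCm38.p6). Probe coordinates are mm9, as in the files. The fit was tested on simulated data.

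The 7 genes and all lists were chosen with earlier results of these data known. Named genes are the 7 genes, up to 4 called genes and 2 of the brightest uncalled genes per pathway list, 10 genes set by role (1 of them is not reported here) and the 3 genes nearest to each called gene. Markers used to check the labels are named too. Alternatives covered normalisation, background, the filter, probe choice, the variance model, each array left out and the deposited value table.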

Additional observations from a re-analysis of the deposited data

Results flagged for a closer look

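On 7 measurements 1 array stood far from the other 3, past the critical value of Dixon's test for 4 arrays, which sets the gap to the nearest array over the whole range. Chance marks about 1 in 20 such groups, and 12 probes and 41 named genes were examined. Pthlh stood apart on array 3, with a log2 ratio of 1.21 and a gap of 0.831 of the range. Ramp3 stood apart on array 1, at -0.86 (gap 0.948). Array 2 stood apart for Calb2, at -2.35 (gap 0.836), for Mt2, at 3.81 (gap 0.912), and for Ppard, at 0.15 (gap 0.838). Rarb was nearest to 0 on array 4, at -2.23 (gap 0.855). Cyp27b1 was at 0.01 on array 3 (gap 0.877).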

How the results depend on the processing

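Pth1r and Vdr kept their direction in every alternative and their call in all 9 that used all 4 arrays, with adjusted p-values of 0.0112 to 0.0349 (limma, Benjamini-Hochberg). Leaving out 1 array in turn gave 0 to 2 called genes of the 7, and 0 to 2 called probes of the 12. Without array 3 the 2 called genes were Vdr and Pthlh. The 5 called genes of the pathway lists became 15 with median centring, 8 with scale normalisation between arrays, and 3 with the scanner software's processed signals, with no filter on dim probes or with the deposited value table. Leaving out 1 array in turn gave counts of 0 to 3. Recomputed list medians moved by 1 SD between arrays or more in 12 cases, 5 of them with median centring, and by less in 118. The Ghr variant 2 probe turned to -0.07 without array 3 (adjusted p = 0.906) and ranged from -0.07 to 0.37 over the arrays left out. Over all genes, 422 calls became 1421 with median centring, 267 with processed signals, 274 with the value table, 0 without array 1 (3197 at an unadjusted p under 0.05), 0 without array 2 (3421), 182 without array 3 and 31 without array 4. The main test is already paired, because each array's log2 ratio sets both of its RNAs against each other, and there is 1 group of arrays. Signal limits Cyp24a1 in both channels and all 4 Esr1 probes in Cy3, on 2 arrays for 2 of them and on all 4 for the others. Dye bias was not measured, since no array had the dyes exchanged.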
